A study of Mus musculus with 8 samples.

Results

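The 10 glycolytic enzymes Hk2, Gpi1, Pfkp, Pfkl, Aldoa, Tpi1, Pgk1, Eno1, Pkm and Ldha were followed from the surface to the crypt base of distal colon in mice. They were chosen by gene symbol in the array's probe annotation, where 8 of the 10 had a named probe, 12 probes in all out of 46632 on the array. No probe is named for Gpi1 or Eno1 in the annotation used here, so both were not analysed here. Of the 8 enzymes with a probe, 7 were tested among 9494 genes, and Pgk1 was not, because its probe was detected on 0 of the 8 arrays. The samples were 4 of surface epithelium and 4 of crypt base epithelium, cut out of tissue sections by laser capture microdissection from 4 wild-type male C57BL/6 mice aged 10 to 12 weeks, each of which gave one sample of each kind. The RNA was amplified over a pair of rounds, labelled with biotin and hybridised to Illumina bead arrays. The comparison addresses how the epithelium differs between the differentiated cells at the surface and the dividing cells at the base of the crypt.

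Glycolysis splits glucose into pyruvate in the cytosol and yields ATP without oxygen, and lactate dehydrogenase can then turn the pyruvate into lactate. Hexokinase, phosphofructokinase and pyruvate kinase catalyse the steps at which the pathway is mainly controlled, and several of its genes are known targets of the hypoxia-inducible factor and of Myc. Colonocytes are known for burning butyrate made by gut bacteria as their main fuel, and oxygen is known to fall steeply from the crypt base towards the lumen.

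Values are log2 signals as deposited, and a change is the surface value minus the crypt base value with the standard error of the fit, in which same-numbered samples formed a block. A gene passed the test at an adjusted p under 0.05 (limma, two-sided, Benjamini-Hochberg over all 9494 genes). A log2 signal of 5.52 is called background, since as many signals exceeded it as had a detection p-value under 0.05. The arrays had between 15041 and 16429 detected probes each. One array was unlike the rest. On surface 4, 199 probes differed by over 2 log2 units from the other arrays' median, against 6 to 34 probes on each other array, and 0 of them were probes of the enzymes. The labels fitted the tissue in part. All 7 tested surface colonocyte markers passed and were higher at the surface. Of 5 tested markers of the crypt base, 4 passed and were lower at the surface. Top2a, among those 4, exceeded background only in crypt base samples, so it entered the test through them. Another Top2a probe did not pass (adjusted p = 0.124 in limma over the probes tested), nor did Cdk1 (adjusted p = 0.0982 in limma). The epithelial markers Krt8, Vil1 and Krt19 were far above background in both groups. Epcam was near it (means of 5.68 at the surface and 5.40 at the crypt base). The markers Krt20 and Lgr5 had probes but were not detected on enough arrays to be tested.

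Of the 7 enzymes tested, 6 rose at the surface and 0 fell, Hk2 of the first step and Ldha after the last among them. Among all genes tested 12.1% rose and 10.1% fell. One of the 6, Pfkp, entered the test only through its surface signals, and without it 5 of 6 enzymes rose, with a median change of 0.71. The largest rises were those of Ldha and Hk2, each close to a doubling of the signal, followed by Pkm. Aldoa, Tpi1 and Pfkp rose less, and Pfkl did not pass the test. The median change of the 7 enzymes was 0.56, against -0.01 for all genes tested, and their changes ranked from 217th to 1221st of 9494 counted from the highest. In captured tissue a different share of cells of a type and a different amount of RNA per cell cannot be told apart. The count depended on which pair was left out. Without replicate 1 no gene of the array passed in limma and so 0 of the 7 did (lowest adjusted p of any gene 0.05002, and 0% of genes called), although 6 of the 7 had an unadjusted p under 0.05, as had 2512 of all 9494 genes. Without replicate 3 the count was 2, where 6.73% of all genes rose, and without replicate 4 it was 3, where 6.11% rose. Without replicate 2 it was 6, where 12.2% rose. Leaving out surface 4 alone, in a fit without the block, gave 3, where 5.6% of all genes rose, and with all samples but no block 6 of the 7 rose, as did 7.25% of all genes.

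**Figure D1:**
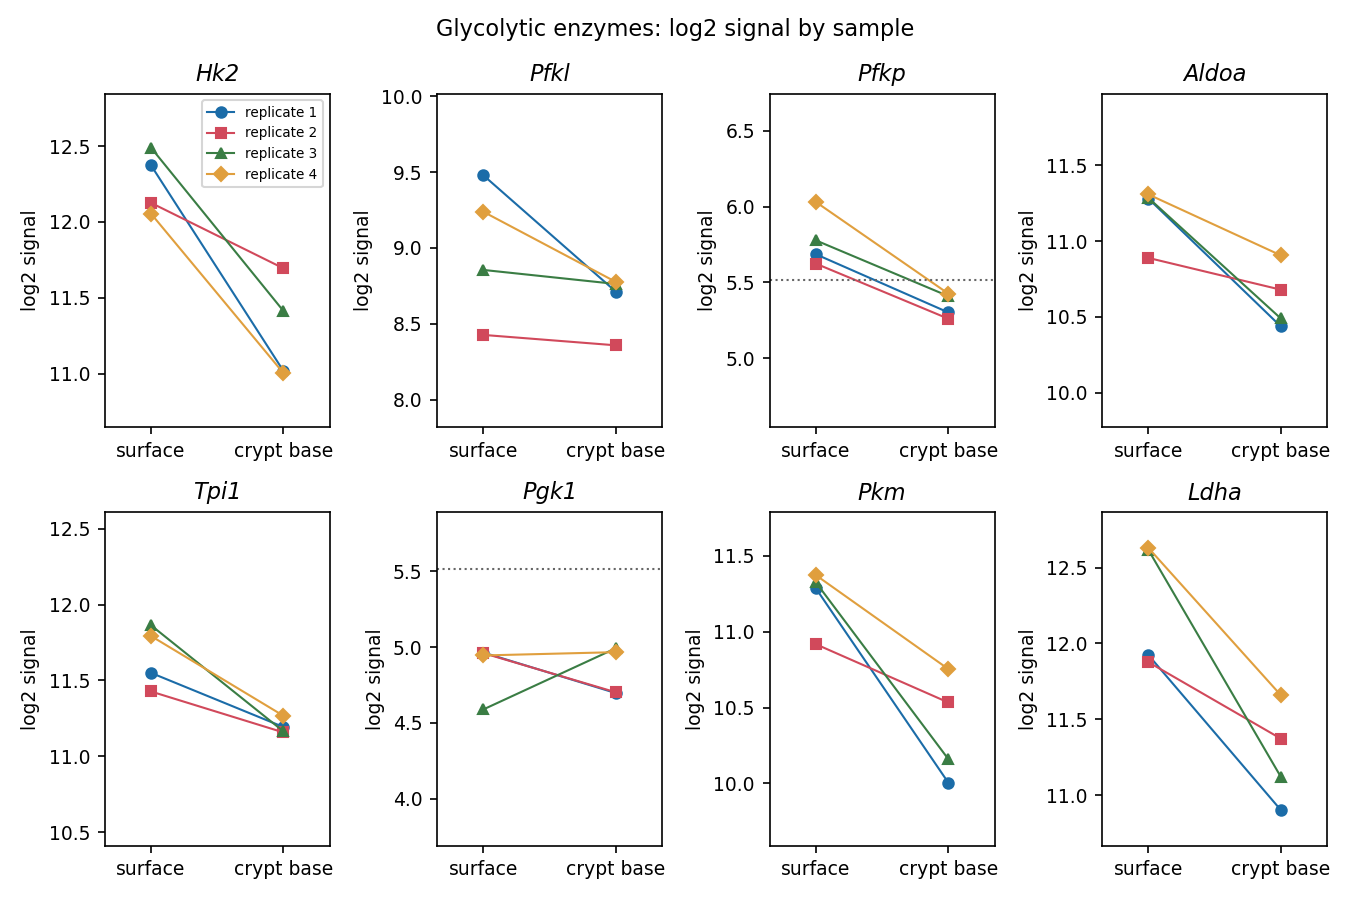
Log2 signal (y axis, 2.2 log2 units in every panel) of the 8 glycolytic enzymes with a probe, in the surface samples (left) and crypt base samples (right); lines join same-numbered samples and the dotted line is background at 5.52. Every line but those of Pgk1, whose points all lie under background, falls from left to right.

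The DNA upstream of some of these genes is printed here because the hypoxia response element and the E-box, known binding sites of the hypoxia-inducible factor and of Myc, are short enough to be read by eye. The sequences are the 250 bases before an annotated transcription start in RefSeq (build GRCm38.p6), 5′ to 3′ on the strand of the gene. Capitals mark ACGTG or GCGTG, the core of the hypoxia response element, on either strand (CACGT or CACGC on the other). Hk2 and Ldha are given as the enzymes with the largest changes, Slc2a1 as the glucose carrier, and Tpi1 as an enzyme that rose and holds none. Of the 2 annotated Ldha windows the one farther upstream is printed, which is also the one with more matches, and the other, at chr7:46846832-46847081, has 1 match to the core and 0 E-boxes. Hk2 lies at chr6:82774455-82774704 on the minus strand, Ldha at chr7:46845554-46845803 on the plus strand, Slc2a1 at chr4:119108495-119108744 on the plus strand and Tpi1 at chr6:124814159-124814408 on the minus strand.
Hk2: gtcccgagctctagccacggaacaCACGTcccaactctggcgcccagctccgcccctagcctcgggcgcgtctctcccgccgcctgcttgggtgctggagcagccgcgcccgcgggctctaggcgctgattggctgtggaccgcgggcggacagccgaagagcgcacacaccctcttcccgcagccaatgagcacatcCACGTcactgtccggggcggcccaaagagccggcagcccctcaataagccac
Ldha: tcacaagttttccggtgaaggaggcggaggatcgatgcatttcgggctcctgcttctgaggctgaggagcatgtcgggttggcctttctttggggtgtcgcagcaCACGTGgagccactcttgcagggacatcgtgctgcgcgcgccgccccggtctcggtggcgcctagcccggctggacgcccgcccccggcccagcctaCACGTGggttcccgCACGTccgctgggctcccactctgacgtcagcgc
Slc2a1: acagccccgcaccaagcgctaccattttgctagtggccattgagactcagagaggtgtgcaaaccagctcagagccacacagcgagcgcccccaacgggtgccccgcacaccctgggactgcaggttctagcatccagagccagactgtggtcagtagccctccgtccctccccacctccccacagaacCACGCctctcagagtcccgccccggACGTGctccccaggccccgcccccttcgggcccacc
Tpi1: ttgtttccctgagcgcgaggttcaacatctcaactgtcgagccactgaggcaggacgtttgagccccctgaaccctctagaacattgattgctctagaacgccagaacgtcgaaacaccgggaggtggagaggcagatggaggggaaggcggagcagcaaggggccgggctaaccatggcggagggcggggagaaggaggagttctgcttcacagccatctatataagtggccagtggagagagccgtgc

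The core was found in 8 of 11 such windows of the 7 enzymes tested, or 72.7%, counting each annotated start of a gene. Windows of the same gene can overlap, so the 11 are not separate stretches of DNA. The Aldoa windows at chr7:126799255-126799504 and chr7:126799179-126799428 hold the same match, which was counted in both. It was found in 53.3% of the 9818 windows of the genes tested that had one, and in 38.6% of all 32851 windows. The E-box CACGTG, which holds the core on both strands, was found in 1 of the 11 windows, the one of Ldha printed above, where it occurs at 2 positions. It was found in 8.13% of the windows of genes tested. The Ldha window has 5 matches to the core, of which 4 lie in these E-boxes. The window of Hk2 has 2 matches, that of Slc2a1 has 2 and that of Tpi1 has 0. These matches describe letters in a window and show no binding, and a link between them and the changes was not tested.

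Hk2 (gene ID 15277) encodes hexokinase 2, which phosphorylates glucose in the first step and whose upstream DNA is printed above. Its log2 signals were 12.37, 12.13, 12.49 and 12.05 in surface samples 1 to 4, against 11.02, 11.69, 11.41 and 11.004 in crypt base samples 1 to 4. All surface samples lay above all crypt base samples, and sample 2 of the crypt base came closest to the surface. The change was 0.98 ± 0.15 (SE, n = 4 pairs), or 1.97-fold, with an adjusted p of 0.0120 in limma. The call held without replicate 3 (adjusted p = 0.0450) and without replicate 4 (adjusted p = 0.0406). Hk2 did not pass without replicate 1 (adjusted p = 0.0614 in limma), where no gene of the array passed.

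Pfkl and Pfkp encode the liver and platelet forms of phosphofructokinase, which commits the sugar to glycolysis. Pfkl (gene ID 18641) had log2 signals of 9.48, 8.43, 8.86 and 9.24 at the surface, against 8.71, 8.36, 8.76 and 8.78 at the crypt base. Surface 2 lay below 3 of the crypt base samples, so the groups overlapped, although the surface sample was the higher one in all 4 pairs. The change of 0.35 ± 0.14 (95% interval of the fit 0.02 to 0.68) did not pass the test (adjusted p = 0.121 in limma). Pfkp (gene ID 56421) was dim, with 5.69, 5.62, 5.78 and 6.03 at the surface and 5.30, 5.26, 5.41 and 5.43 at the crypt base. All its surface signals exceeded background and none of its crypt base signals did, so it entered the test through the surface samples, and its crypt base level is only a bound. Measured means were 5.78 ± 0.18 at the surface and 5.35 ± 0.08 at the crypt base (SD, n = 4 each), a change of 0.43 ± 0.08 (SE, adjusted p = 0.0176 in limma). The surface mean was 1.20-fold above background. With signals raised to background Pfkp did not pass (change 0.26, adjusted p = 0.0888), nor without replicate 3 (adjusted p = 0.0507) or replicate 4 (adjusted p = 0.0729). A further Pfkp probe near background ranged from 5.35 to 6.19 at the surface and from 4.98 to 5.91 at the crypt base, with a change of 0.18 (adjusted p = 0.595 over the probes tested), and the third was detected on 0 arrays.

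Aldoa and Tpi1 act where the sugar is split. Aldoa (gene ID 11674), aldolase A, cleaves fructose 1,6-bisphosphate. It had log2 signals of 11.28, 10.89, 11.29 and 11.31 at the surface, against 10.44, 10.68, 10.49 and 10.91 at the crypt base. Surface 2 lay just under crypt base 4, and apart from that one sample the groups did not overlap. The change was 0.56 ± 0.13, or 1.48-fold (adjusted p = 0.0292 in limma), and the adjusted p without replicates 1, 3 and 4 in turn was 0.123, 0.0902 and 0.0646. Tpi1 (gene ID 21991), triosephosphate isomerase, interconverts the 3-carbon sugars. Its surface signals of 11.55, 11.43, 11.86 and 11.79 all lay above its crypt base signals of 11.19, 11.16, 11.16 and 11.27, which were close to each other. The change was 0.46 ± 0.10, or 1.38-fold (adjusted p = 0.0227 in limma), and it did not pass without replicate 3 (adjusted p = 0.0668) or replicate 4 (adjusted p = 0.0824). A further Tpi1 probe was detected on 0 arrays.

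Pgk1 encodes phosphoglycerate kinase, which makes the first ATP of the pathway's second stage. Its only probe had log2 signals of 4.59 to 4.96 at the surface and 4.70 to 4.99 at the crypt base, all under background. No fold change is given for it, and the signals do not show whether the transcript was present.

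Pkm and Ldha act at the end of the pathway. Pkm (gene ID 18746), the pyruvate kinase of muscle and most dividing cells, had log2 signals of 11.29, 10.92, 11.32 and 11.37 at the surface, against 10.01, 10.53, 10.16 and 10.75 at the crypt base. The groups did not overlap, with surface 2 and crypt base 4 nearest to each other. The change was 0.86 ± 0.17, or 1.82-fold (adjusted p = 0.0189 in limma), and it did not pass without replicate 3 (adjusted p = 0.0632). A dimmer Pkm probe, detected on 6 arrays, had signals of 5.63 to 5.96 at the surface and 5.42 to 5.72 at the crypt base and a change of 0.27 (adjusted p = 0.126 over the probes tested). Ldha (gene ID 16828) encodes the A subunit of lactate dehydrogenase, which converts pyruvate to lactate. Its signals were 11.92, 11.88, 12.62 and 12.63 at the surface, against 10.90, 11.37, 11.12 and 11.66 at the crypt base. All surface samples lay above all crypt base samples, with surface 3 and 4 highest. The change was 0.998 ± 0.158, or 2.00-fold (adjusted p = 0.0122 in limma). It passed without replicate 3 (adjusted p = 0.0345) and replicate 4 (adjusted p = 0.0394), and had an adjusted p of 0.0558 without surface 4 in the fit without the block. Ldha did not pass without replicate 1 (adjusted p = 0.0662 in limma), where no gene of the array passed.

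Of the 7 enzymes, 5 had all surface signals above all crypt base signals, which was so for 9.72% of the genes tested. These were Hk2, Pfkp, Tpi1, Pkm and Ldha. Pfkp passed the detection filter through its surface signals alone, so its separation is not independent of the filter. Without Pfkp, 4 of 6 did not overlap. Copies of glycolytic genes with near-identical sequence lie elsewhere in the mouse genome, and whether the probes also bind transcripts of such copies was not tested.

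**Figure D2:**
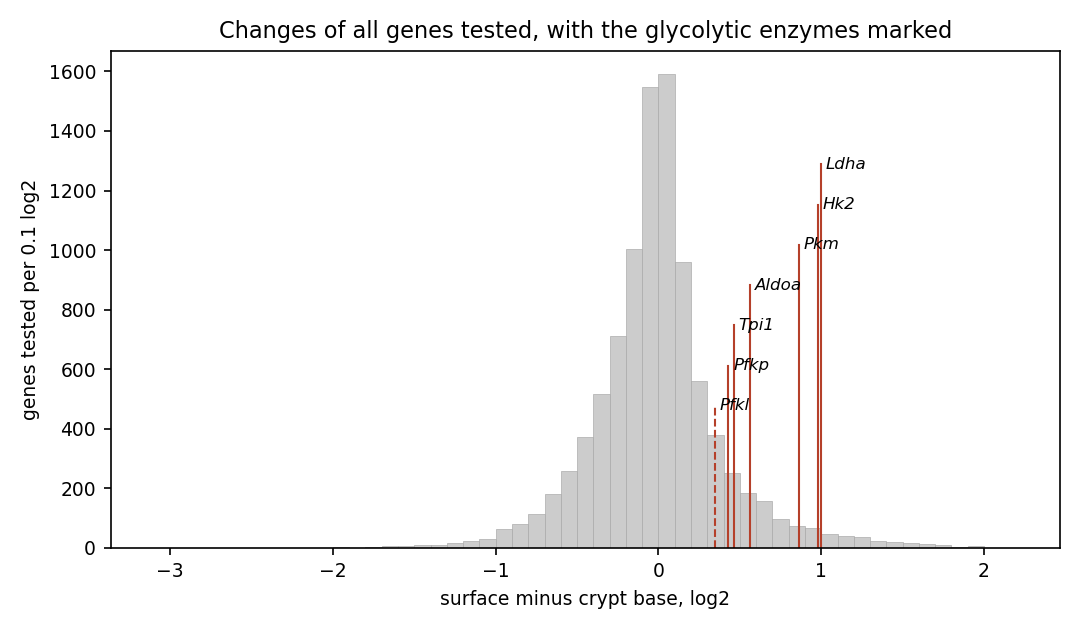
Number of genes tested (y axis) by change in log2 signal, surface minus crypt base (x axis, in steps of 0.1), with the 7 glycolytic enzymes tested marked by lines, solid for an adjusted p under 0.05 and dashed for Pfkl. All 7 lie to the right of the median of all genes at -0.01, between 0.35 and 0.998.

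The size of the rise differed between pairs. The surface sample was higher for all 7 enzymes in each of the 4 pairs, and 21.6% of the genes tested were higher in all 4 pairs. The median change of the 7 was 0.84 in pair 1, 0.36 in pair 2, 0.79 in pair 3 and 0.60 in pair 4. Pair 2 gave the smallest change of all 7 enzymes, from 0.07 for Pfkl to 0.50 for Ldha. It also gave the smallest change of 64.4% of the 1147 genes that rose. The markers of surface colonocytes had a median change of 2.20 in pair 1, 0.96 in pair 2, 1.39 in pair 3 and 1.86 in pair 4.

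Markers of other cell types were read on the same arrays. The 7 smooth muscle markers tested all had changes under 0, with 0 of 7 passing the test and a median of -0.84, and their summed linear signal ran from 2020 to 11670 at the surface and from 6371 to 25119 at the crypt base. Acta2, the actin of smooth muscle, averaged 11.75 ± 1.01 at the surface and 12.59 ± 0.67 at the crypt base (SD, n = 4 each), and Actg2 averaged 10.96 ± 1.49 at the surface and 12.20 ± 1.04 at the crypt base. Without replicate 3 both passed and were lower at the surface (adjusted p = 0.0306 for each in limma). In pair 3 the smooth muscle median was 0.25, above 0, and the enzymes' median there was 0.79. The 6 epithelial markers had a median change of 0.58, and 3 of them rose. Their summed signal ran from 11056 to 13752 at the surface and from 6842 to 9646 at the crypt base. Summed signals of the other lists overlapped. They ran from 2005 to 2636 at the surface and 1731 to 3316 at the crypt base for 7 fibroblast markers, where 1 rose, and from 802 to 964 at the surface and 666 to 944 at the crypt base for 5 endothelial markers, where 1 fell. They ran from 1553 to 4721 at the surface and 1669 to 4238 at the crypt base for 4 leukocyte markers, where 0 passed. For 8 goblet and endocrine markers the range was 18787 to 24162 at the surface and 12254 to 22162 at the crypt base, where 1 rose (Tff3, 0.91 ± 0.09) and 1 fell. The single red blood cell marker tested, Hba-a1, averaged 7.06 ± 0.90 at the surface and 6.95 ± 1.14 at the crypt base. The genes of these lists with the highest means over both groups averaged, at the surface, 10.00 for Dcn and 9.27 for Pdgfra (fibroblasts), 9.08 for Pecam1 and 6.56 for Cldn5 (endothelium), 11.27 for Laptm5 and 6.47 for Cd3e (leukocytes) and 13.59 for Muc2 (goblet cells). At the crypt base they averaged 10.38 for Dcn, 8.80 for Pdgfra, 8.68 for Pecam1, 7.18 for Cldn5, 11.46 for Laptm5, 6.21 for Cd3e and 13.20 for Muc2. The part of other cells in the enzymes' changes was not tested.

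**Figure D3:**
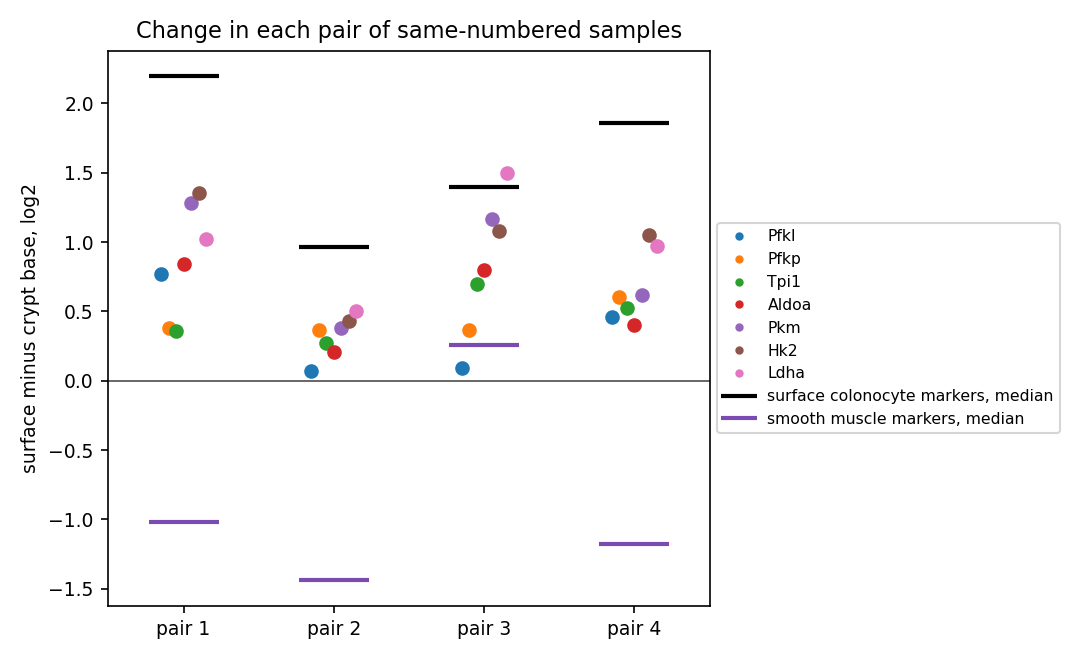
Change in log2 signal within each pair of same-numbered samples, surface minus crypt base (y axis), for the 7 glycolytic enzymes tested (points) and the medians of the surface colonocyte and smooth muscle marker lists (bars). All points lie above 0 and are lowest in pair 2, while the smooth muscle median is under 0 in every pair except pair 3 (0.25).

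Other enzymes of the same steps rose in part. Of 20 further genes listed for the steps of glycolysis and for lactate dehydrogenase, 11 were tested, 3 rose and 0 fell, with a median change of 0.02. Eno3, the enolase of muscle, had the largest change of these, with log2 signals of 9.48, 8.52, 9.16 and 9.67 at the surface, against 7.70, 7.65, 7.58 and 8.05 at the crypt base. The groups did not overlap, surface 2 being the lowest surface sample, and the change was 1.46 ± 0.16, or 2.76-fold (adjusted p = 0.00749 in limma). Hk1, the hexokinase found in most tissues, had 9.69, 9.31, 9.39 and 9.85 at the surface and 8.73, 8.95, 8.85 and 8.84 at the crypt base, a change of 0.72 ± 0.13 (adjusted p = 0.0167 in limma, and 0.0548 without replicate 4). Gapdh, the dehydrogenase that follows Tpi1, had 12.50, 12.30, 12.36 and 12.52 at the surface and 11.67, 11.92, 11.595 and 12.02 at the crypt base, a change of 0.62 ± 0.10 (adjusted p = 0.0132 in limma). All 3 Gapdh probes detected were higher at the surface, by 0.52 to 0.62. A gene often used to scale samples was therefore 1.54-fold higher at the surface on these arrays.

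The other 8 did not pass the test, and most were dim. The muscle phosphofructokinase gene Pfkm changed by -0.26 ± 0.14, the neuronal enolase gene Eno2 by -0.28 ± 0.17, and the brain aldolase gene Aldoc by 0.23 ± 0.12. The hexokinase gene Hk3 changed by -0.32 ± 0.23, with 4.56 in surface 4 and 5.80 to 6.02 in the other surface samples, and Hkdc1, which resembles the hexokinases, by 0.03 ± 0.08. Adpgk, an ADP-dependent glucokinase, changed by -0.38 ± 0.14, with 0.03 for another of its probes. Ldhb, the heart form of lactate dehydrogenase, changed by -0.09 ± 0.13 around means of 5.58 at the surface and 5.67 at the crypt base, and Ldhd, which acts on D-lactate, by 0.02 ± 0.08. Differences between signals this near background may come out too small, so a change near 0 does not show equal levels. For the phosphofructokinase and lactate dehydrogenase genes, whether one form changed more than another was not tested.

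**Figure D4:**
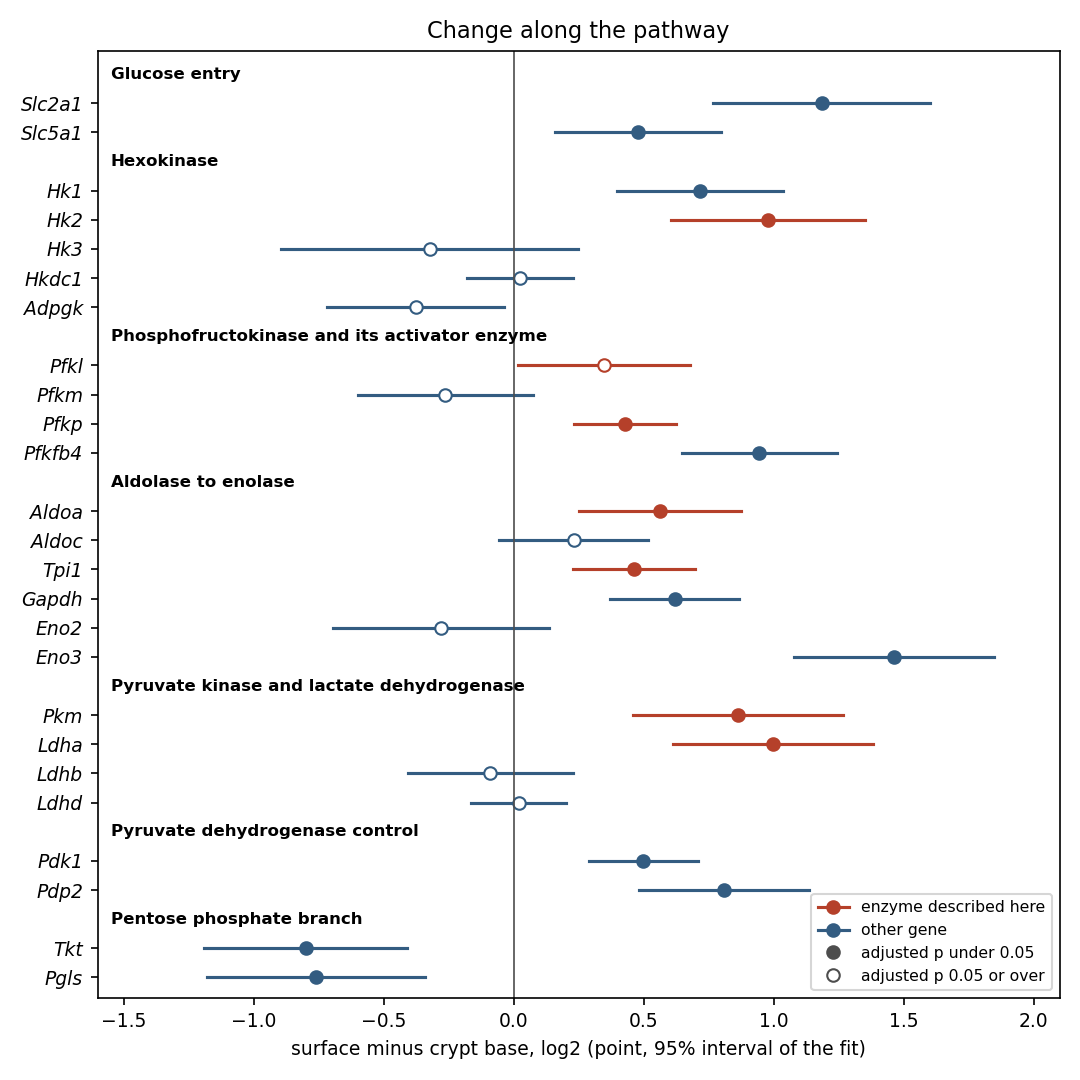
Change in log2 signal, surface minus crypt base (x axis, points with 95% intervals of the fit), for genes from glucose entry to pyruvate and the pentose phosphate branch; red marks the glycolytic enzymes described here, blue the other genes, and filled points an adjusted p under 0.05. Points from Slc2a1 (1.18) to Ldha (0.998) that are filled lie right of 0, and the filled points of Tkt and Pgls (-0.80 and -0.76) lie left of it.

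The main glucose carrier rose with the enzymes. Of 14 genes of glucose, lactate and pyruvate transport 8 were tested, 2 rose and 0 fell, with a median change of 0.08. Slc2a1, which encodes the glucose transporter GLUT1, had log2 signals of 11.42, 10.58, 11.06 and 11.04 at the surface, against 9.73, 9.97, 9.87 and 9.79 at the crypt base. The groups were apart, and the change of 1.18 ± 0.17 was 2.27-fold (adjusted p = 0.0102 in limma). Slc5a1, the sodium-coupled glucose carrier, changed by 0.48 ± 0.13 with an adjusted p of 0.0486, which was 0.301 without the replicate block. A second Slc5a1 probe, also above background on all 8 arrays, changed by 0.22 (adjusted p = 0.0968 in limma over the probes tested). Among 14 tested genes of the enzymes that set entry to and exit from glycolysis 3 rose and 0 fell, with a median change of 0.07. Pfkfb4, whose product makes an activator of phosphofructokinase, rose by 0.94 ± 0.12 (8.58, 7.90, 8.64 and 8.30 at the surface, 7.30, 7.29, 7.59 and 7.46 at the crypt base). Pdp2, a phosphatase that switches pyruvate dehydrogenase on, rose by 0.81 ± 0.13, and Pdk1, a kinase that switches it off, by 0.498 ± 0.086. Without the replicate block Pdk1 did not pass (adjusted p = 0.148), and its probe had a detection p-value under 0.05 on 5 arrays although all 8 signals exceeded background.

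The pentose phosphate branch, which draws sugar phosphate off for NADPH and ribose, held genes that fell. Of its 6 genes tested 0 rose and 2 fell, with a median change of -0.24. Tkt, transketolase, had log2 signals of 12.13, 12.32, 11.97 and 11.88 at the surface, against 13.36, 12.57, 12.76 and 12.81 at the crypt base. All surface samples lay under all crypt base samples. Tkt fell by 0.80 ± 0.16 on the log2 scale, or 1.74-fold (adjusted p = 0.0206 in limma). Pgls, 6-phosphogluconolactonase, changed by -0.76 ± 0.17 (adjusted p = 0.0284 in limma), with -0.02 for its dim second probe. Neither Tkt nor Pgls passed without replicate 3 (adjusted p = 0.0636 and 0.0834) or without replicate 4 (adjusted p = 0.0662 and 0.0855). In the reverse pathway, gluconeogenesis, 2 of 6 genes rose and 0 fell. These were Pcx, pyruvate carboxylase, by 0.45 ± 0.08 and Pck1, phosphoenolpyruvate carboxykinase, by 0.37 ± 0.09, the second with an adjusted p of 0.0645 without the replicate block. Pcx did not pass without replicate 3 (adjusted p = 0.0519) or replicate 4 (0.0563), and Pck1 did not pass without any one replicate (0.0675 to 0.125). Both had low signals (Pcx averaged 6.08 at the surface and 5.63 at the crypt base, Pck1 6.41 at the surface and 6.03 at the crypt base). Of the glycerol 3-phosphate branch, 0 of 2 passed, and their changes had opposite signs. Gpd1, the cytosolic glycerol 3-phosphate dehydrogenase and the brighter of the pair over both groups, had a change of -0.62 ± 0.18 (adjusted p = 0.0582 in limma). Gpd2, the mitochondrial one, added after its values were seen, averaged 8.61 at the surface and 7.94 at the crypt base, without overlap, a change of 0.67 ± 0.19 (adjusted p = 0.0506 in limma).

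Among 10 regulators listed, 6 were tested, 3 rose and 0 fell, with a median change of 0.25. Egln1, among the 3 that rose, entered the test only through its surface signals. Hif1a and Myc were among those with a probe that was not detected on enough arrays. Egln3, an oxygen-dependent prolyl hydroxylase that marks the hypoxia-inducible factor for removal and is itself a known hypoxia target, had log2 signals of 10.25, 9.38, 10.56 and 10.48 at the surface, against 8.20, 8.496, 8.81 and 8.58 at the crypt base. The groups were apart, and the change was 1.64 ± 0.20, or 3.13-fold (adjusted p = 0.00786 in limma), with 1.47 for its second probe. Mlx, the partner of the glucose-sensing factors of the carbohydrate response, rose by 0.499 ± 0.071. Among its probes detected on at least 4 arrays, the one that changed least had 0.29 (adjusted p = 0.0732 in limma). Egln1, another prolyl hydroxylase, was under background in all crypt base samples, and its surface mean was 1.20-fold above background. Its means were 5.78 at the surface and 5.44 at the crypt base (adjusted p = 0.0291 in limma, and 0.0519 without the replicate block or 0.0726 with signals raised to background).

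The genes whose signals over the 8 arrays, centred on their own mean, lay nearest to those of Ldha, the enzyme with the highest change, were Dnajc5 (root mean square distance 0.089 log2 units), Fam110c (0.116) and Tmem45b (0.133), with changes of 1.004, 0.86 and 1.04. Nearest to Pfkl, the enzyme with the lowest change, were Nrap (0.123), Ndufb4 (0.127) and Eipr1 (0.131), with changes of 0.47, 0.37 and 0.37.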

How the data were processed

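Log2 signals of 46632 probes on 8 Illumina arrays were used as deposited by the authors. Per the submitters' processing notes, GenomeStudio was used, and the sources used here give neither its version nor the normalization. The sorted arrays lay within 0.01 of each other at 99.0% of ranks, so they had been made equal in distribution before deposit. The deposited detection p-values, per the file headers, stand in 8 columns whose headers name no sample, so they served only to count arrays. The 8 signal columns beside them were not used, beyond a check that each equalled a log2 column within 1e-06.

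Each gene took its probe with the highest mean, and genes detected (p-value under 0.05) on at least 4 arrays were tested in limma 3.58.1 (R 4.3.3), with sample numbers as fixed blocks, leaving 3 residual and 3.09 prior degrees of freedom. The script was tested on simulated data. Alternatives changed the block, scaling, background, filter, probe choice, eBayes settings and replicates. Of the probes 29976 had 1 symbol, and 29921 of these were matched by gene ID to RefSeq (GRCm38.p6). The series' text says that each mouse gave both samples, and the labels do not tie the number to the mouse. The p-values of the main fit measure the spread of the differences between same-numbered samples. They therefore rest on a pairing by number that is assumed. The enzymes, lists and rules were chosen with earlier results of these data known. Named are all listed enzymes, all tested isoenzymes, the largest changes past the threshold in each other list, the brightest markers of other cells and the nearest genes. The number of arrays limits the precision.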

Additional observations from a re-analysis of the deposited data

Results flagged for a closer look

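In groups of 4, a sample is listed here where its gap to the nearest other sample, as a share of the group's range, exceeded Dixon's 95% critical value. This held for 6 of 132 groups, and chance gives about 1 in 20. Among the enzymes these were Aldoa in surface 2, at 10.89 against 11.28 to 11.31 in the other surface samples, and Pfkl in crypt base 2, at 8.36 against 8.71 to 8.78 in the other crypt base samples. The others were Hk3 in surface 4 (4.56 against 5.80 to 6.02), Krt19 in surface 4 (10.27 against 9.49 to 9.57), Pdp2 in crypt base 1 (7.14 against 7.61 to 7.69) and Egln1 in crypt base 2 (5.30 against 5.46 to 5.495).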

How the results depend on the processing

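The changes of all 7 enzymes stayed above 0 under all 15 alternatives run, in those that tested them, with ranges of 0.85 to 1.16 for Hk2, 0.83 to 1.16 for Ldha, 0.27 to 1.02 for Pkm, 0.47 to 0.68 for Aldoa, 0.38 to 0.53 for Tpi1, 0.18 to 0.53 for Pfkp and 0.21 to 0.44 for Pfkl. Many of these signs could not have turned. Alternatives that changed only the block, the filter or the eBayes settings kept the same changes. All 7 enzymes were higher at the surface in every pair, so leaving out one replicate number could not turn a sign. Leaving out one replicate number gave 0 to 6 enzymes higher and 0 to 2303 genes called, against 6 and 2110. Without surface 4, in the fit without the block, 3 enzymes and 931 genes were called. Without the replicate block the same 6 enzymes passed and 1267 genes were called. Same-numbered samples deviated together at r = 0.45, 0.39, -0.04 and 0.48 for numbers 1 to 4 (across 9494 genes, which are not independent), and surface 2 and crypt base 3 correlated at 0.31, so the data alone do not show the pairing. Pfkp was lost when signals were raised to background (0.26) and when detected probes were averaged (0.31). Pfkp and Pkm were lost when the detected probe with the smallest change was taken (0.18 and 0.27, adjusted p = 0.628 and 0.129 in limma). Pfkp was not tested when detection on all arrays was required. Signs turned for genes that did not pass: Adpgk (0.0331) and Pdgfra (-0.0277) with the smallest-change probe, and Hba-a1 (-0.30), Hk3 (0.0150), Laptm5 (0.0788) and Ldhb (0.0082) without surface 4. Leaving out one replicate number gave -0.0032 to 0.251 for Hba-a1, -0.011 to 0.0824 for Hkdc1, -0.398 to 0.0589 for Laptm5 and -0.0200 to 0.0448 for Ldhd. Why the calls differed between these settings was not tested.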
